A study of Mus musculus with 5 samples.

Results

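The Id genes (Id1, Id2, Id3 and Id4) and the E protein genes (Tcf3, Tcf4 and Tcf12) are described here in 2 mouse marrow progenitors, the common dendritic cell progenitor (CDP) and the common myeloid progenitor (CMP). Every probe set was taken whose platform annotation gives exactly 1 gene symbol, that of one of these 7 genes. This gave 22 probe sets of 7 genes, out of 34945 probe sets of 18193 genes with 1 symbol. Id2 and Id3 transcripts were higher in CDP than in CMP, Id1 and Id4 were not detected in either, and none of the 10 tested E protein probe sets passed the test (limma, 1 of the 10 with an unadjusted p under 0.05).

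There were 3 CDP and 2 CMP samples, each on its own Affymetrix mouse array, all labelled as from wild-type C57BL/6 animals without any treatment named in the labels. CDP 3 carries the prefix CM in its title, unlike the BM of every other sample, although its remaining labels give bone marrow and CDP. CDP were sorted as lineage-negative, Sca-1-negative cells with intermediate c-Kit that carried CD34, Flk2 and CD115 and lacked CD16 and CD32. CMP had high c-Kit, shared the presence of CD34 and Flk2 and the absence of lineage markers, Sca-1, CD16 and CD32, and lacked CD115 and CD11c. Both were sorted and sorted again, and RNA from 10000 to 30000 cells was amplified over 2 cycles. The labels give neither age nor sex, and nothing in them states that the samples are from different animals. The p-values therefore reflect sample-to-sample spread only, which may be technical. The study's title concerns IRF-8, neutrophil production and commitment to dendritic cells. The comparison of CDP with CMP asks how the committed progenitor differs from the earlier one.

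E proteins are transcription factors of the basic helix-loop-helix class that bind DNA as dimers at short sites called E-boxes. Id proteins carry the helix-loop-helix part without the basic part, so they pair with E proteins and keep them off DNA. Tcf3 encodes E2A (the proteins E12 and E47), Tcf12 encodes HEB and Tcf4 encodes E2-2. Tcf3 here is E2A by its gene identifier, not the Wnt pathway factor Tcf7l1 that once shared the symbol, and Tcf4 is E2-2, not Tcf7l2. In the dendritic cell lineages E2-2 is known as the factor that sets up and keeps the plasmacytoid type, while Id2 is needed by part of the conventional type, and E2A and HEB act in early lymphoid cells.

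Because Id2 and Id3 are the members whose levels differed, the 250 bases before their RefSeq transcription starts are shown, 5′ to 3′ on the strand of the gene. RefSeq windows (build GRCm38.p6) matched 5 of the 7 genes. Capitals mark matches to 5 short motifs searched on both strands, where each motif is given in a single orientation here. They are the E-box, spelled CANNTG, the CCAAT box, spelled CCAAT, and the GC box, spelled GGGCGG. The others are a TATA element, spelled TATAA, and a palindromic GC element, spelled GGCGCC. The Id2 window lies at chr12:25096093-25096342 on the minus strand and the Id3 window at chr4:136143572-136143821 on the plus strand.
Id2: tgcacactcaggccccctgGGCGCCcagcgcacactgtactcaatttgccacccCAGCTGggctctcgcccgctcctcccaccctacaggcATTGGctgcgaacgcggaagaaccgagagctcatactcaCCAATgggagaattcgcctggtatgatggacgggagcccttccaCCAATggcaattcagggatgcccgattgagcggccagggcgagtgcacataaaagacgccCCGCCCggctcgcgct
Id3: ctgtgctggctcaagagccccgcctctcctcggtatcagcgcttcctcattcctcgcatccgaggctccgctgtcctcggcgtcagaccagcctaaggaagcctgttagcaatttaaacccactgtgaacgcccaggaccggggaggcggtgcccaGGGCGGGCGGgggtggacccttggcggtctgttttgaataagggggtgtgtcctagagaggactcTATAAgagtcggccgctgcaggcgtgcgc
The Id2 window holds 1 E-box, CAGCTG, starting 196 bases before the transcription start, and 3 CCAAT boxes starting 159, 120 and 76 bases before it. It also has a GC box at 16 bases and GGCGCC at 231 bases. The Id3 window holds no E-box and no CCAAT box. It has a TATA element starting 29 bases before the start and a pair of overlapping GC boxes at 94 and 90 bases. Of 32851 RefSeq windows of this length, 66.2% hold an E-box, 33.8% a CCAAT box, 32.7% a GC box, 22.8% a TATA element and 9.59% GGCGCC. The GC box is the motif of these 5 that both windows share. A match describes letters and not a bound site.

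The arrays differed in ways that bear on some members. On CDP 1 and CMP 1 the control probe set at the 5′ end of beta-actin lay at 6.54 and 6.71 (log2), against 10.52 to 12.97 on the other 3 arrays. These 2 arrays are called low in 5′ signal below, and each difference is also given within the 2 kinds of array. CDP 2 carried neutrophil transcripts, with 9 of 10 neutrophil markers at or above log2 5, against 1 or 2 on each other array. The summed level of these markers was 14.27 to 15.11 in CDP and 14.84 to 15.05 in CMP. On CDP 1 and CMP 1, where 1 marker was detected, that marker made up nearly all of the sum (14.27 and 14.84). The sum therefore does not follow the number of markers detected. Mast cell and basophil markers moved with the groups, with 1 or 2 of 5 detected on each CDP array and 3 on each CMP array, and summed levels of 6.52 to 6.82 against 9.74 to 10.88. B cell markers summed to 11.16 to 11.81 in CDP and 10.19 to 10.34 in CMP, with 2 of 6 detected on every array, and Cd79a, Ms4a1, Pax5 and Ebf1 on no array. Monocyte markers were detected 5 of 5 in CDP and 3 or 4 of 5 in CMP (sums 13.36 to 13.54 and 11.40 to 12.00), and conventional dendritic cell markers 1 or 2 of 7 and 0 of 7 (sums 7.07 to 8.21 and 5.23 to 5.33). The part of such cells in the results below was not tested. The monocyte list holds Csf1r (mean 13.02 in CDP and 11.39 in CMP) and the conventional list Itgax (7.22 and 2.26). Both are genes behind the sorting gate, so these 2 sums are not independent of the sort. Megakaryocyte markers summed to 5.75 to 6.54 in CDP and 7.09 to 7.28 in CMP, with 0 or 1 and 2 of 6 detected. Erythroid markers summed to 8.87 on CDP 2 and 4.71 to 5.56 on the others. None of 6 T and NK cell markers was detected on any array. Of the genes behind the sorting gate, Kit was lower in CDP (-2.57 ± 0.34 SE, limma adjusted p = 0.0318) and Itgax higher (adjusted p = 0.0155), while Csf1r, at 13.02 ± 0.12 (SD, n = 3) in CDP and 11.39 ± 0.51 (SD, n = 2) in CMP, did not pass on its brightest probe set (adjusted p = 0.0966). Kit and Itgax encode c-Kit and CD11c, which were part of the sort, so their calls are not independent of it. Itgax read 2.26 on both CMP arrays and was tested through its CDP arrays alone. These CMP values enter the spread behind its p. Flt3 (0.92 ± 0.30 SE), Cd34 (-1.33 ± 0.56 SE) and Fcgr2b (0.76 ± 0.42 SE) also did not overlap between the groups, and none passed. Such a lack of overlap, in either direction, was found for 32.2% of all tested probe sets. Fcgr2b, for CD32, read 8.72 to 10.25 over the arrays, although both progenitors were sorted as lacking CD32. Fcgr3, for CD16, overlapped, at 4.60 to 5.40.

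Values are the authors' log2 expression values, and a probe set was called detected on an array at log2 5 or above. The table's lowest value is 2.26. Each difference is the CDP mean less the CMP mean on that log2 scale, with its standard error from limma fitted to 16552 tested probe sets (those with at least 2 arrays at log2 5 or above), and adjusted p-values are Benjamini-Hochberg over all of these, with a threshold of 0.05. Of the 22 probe sets 12 were tested, covering 5 genes, and 10 were not. The tested probe sets had a median difference of 0.12, which became 0.0026 after quantile normalization.

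Id2 transcript was far higher in CDP. On its bright probe set (1435176_a_at) Id2 read 9.99, 9.37 and 9.49 on CDP 1, CDP 2 and CDP 3, and 5.85 and 5.07 on CMP 1 and CMP 2. Every CDP array lay above both CMP arrays, and the gap between the groups was several times the spread within either. Means were 9.62 ± 0.33 (SD, n = 3) in CDP and 5.46 ± 0.55 (SD, n = 2) in CMP. The difference was 4.16 ± 0.40 (SE, 95% interval 3.20 to 5.12), or 17.9-fold (limma, adjusted p = 0.0155). Since these are bulk samples, fewer cells that express a gene and less RNA per cell cannot be told apart.

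The Id2 result rests on 1 of 3 probe sets. The other pair (1422537_a_at and 1453596_at) lay between 2.26 and 2.56 on all 5 arrays, below detection, so they neither show nor contradict a difference. The bright probe set is of the kind (suffix _a_at) that can match several transcripts of a gene. Id2 was 4.15 higher on CDP 1 than on CMP 1 and 4.36 higher on the mean of CDP 2 and CDP 3 than on CMP 2. With a term for low 5′ signal (the 5′ block) the difference was 4.27 ± 0.26 (SE, limma adjusted p = 0.00153). The difference was 4.28 without CDP 2, the array with neutrophil transcripts.

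Id3, the other Id gene called, was detected on all CDP arrays and on no CMP array. Its only probe set (1416630_at) read 6.24, 6.81 and 6.37 on CDP 1, CDP 2 and CDP 3, and 2.32 and 2.99 on CMP 1 and CMP 2. The groups did not overlap, and the CMP values lay near the bottom of the table. The difference was 3.82 ± 0.37 (SE, 95% interval 2.91 to 4.73, limma adjusted p = 0.0155) on the deposited values. Because CMP was below detection, only a lower bound can be given for the fold, with values under log2 5 set to 5, and Id3 was at least 2.78-fold higher in CDP. Id3 met the filter through its CDP arrays alone. Undetected CMP values enter the spread behind this p and behind those given for Id3 below. Id3 was 3.92 higher on CDP 1 than on CMP 1, 3.60 higher on the other CDP arrays than on CMP 2, and 3.65 higher without CDP 2. With the 5′ block it was 3.74 ± 0.28 higher (SE, adjusted p = 0.00309).

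Leaving out any single array moved the adjusted p of Id2 and Id3 past the threshold, a loss shared with most other calls of the table. For Id2 the adjusted p became 0.0576 without CDP 1, 0.11 without CDP 2, 0.121 without CDP 3, 0.102 without CMP 1 and 0.0898 without CMP 2, with differences from 3.77 to 4.55. For Id3 it became 0.0576, 0.111, 0.126, 0.108 and 0.0817 in the same order, with differences from 3.48 to 4.15. Without CMP 1 or CMP 2 that group is a single array, assumed to vary like CDP. Over the whole table no probe set passed without CDP 2, CDP 3, CMP 1 or CMP 2 and 44 passed without CDP 1, although 1508 to 3208 had an unadjusted p under 0.05.

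Id1 and Id4 were not detected in either progenitor. Id1, widely known as a target of BMP signals in stem cells and endothelium, lay between 3.09 and 3.94 on its single probe set across the 5 arrays. CDP and CMP overlapped there, at 3.55 ± 0.32 (SD, n = 3) and 3.51 ± 0.60 (SD, n = 2). The 3 probe sets of Id4, known mainly from the nervous system, lay between 2.26 and 2.29, at or close to the table's lowest value. None of these 4 probe sets was tested, and values below detection have no order.

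**Figure D1:**
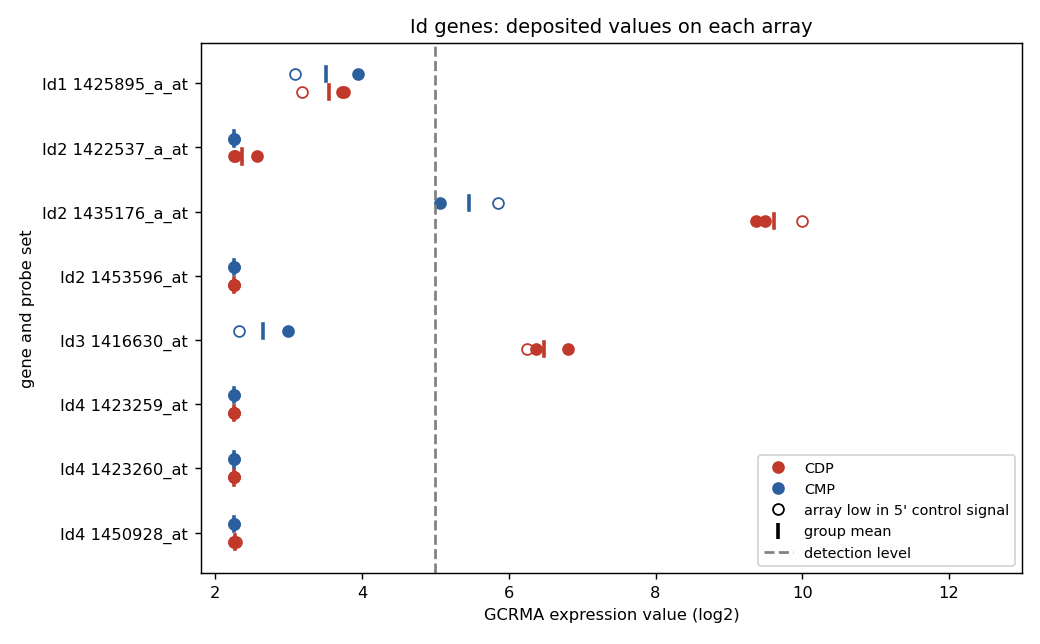
Deposited log2 values (horizontal axis) of the 8 Id probe sets (vertical axis) on each array, with CDP in red, CMP in blue, open circles for the arrays low in 5′ control signal, short bars for group means and a dashed line at the detection level of log2 5. Id2 1435176_a_at and Id3 1416630_at separate the groups, with CDP at 9.37 to 9.99 and 6.24 to 6.81, while the other 6 lie below 5 on every array.

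The E protein genes were detected in both progenitors. Of their 14 probe sets 10 were tested, 9 of them detected on all 5 arrays. None passed, with adjusted p-values from 0.284 to 0.99, and 1 had an unadjusted p under 0.05. Of all 16552 probe sets tested, 1.73% passed in either direction (1.31% higher and 0.423% lower in CDP), and 2640 had an unadjusted p under 0.05. Among the 12 tested probe sets of the members 2 were higher and none lower. Every CDP array lay above every CMP array on 4 of the 12, and on 21.2% of all tested probe sets (no overlap in either direction on 32.2%). A p that misses the threshold does not show equal levels, so intervals are given for each gene.

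Tcf4 (E2-2) read somewhat higher in CDP on each of its 5 tested probe sets, and none passed. On 1434148_at, its brightest, it read 10.29, 10.61 and 10.54 on CDP 1, CDP 2 and CDP 3, and 9.81 and 9.81 on CMP 1 and CMP 2. The groups did not overlap, and the difference was 0.67 ± 0.30 (SE, 95% interval -0.07 to 1.41, limma adjusted p = 0.360). On 1416724_x_at Tcf4 read 9.63, 10.28 and 10.00 in CDP and 8.96 and 9.20 in CMP. There too all CDP arrays were higher, by 0.89 ± 0.34 (SE, 95% interval 0.06 to 1.72, adjusted p = 0.284). That suffix (_x_at) marks probes that may also match other genes.

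The other 3 Tcf4 probe sets overlapped between the groups. On 1416723_at Tcf4 read 10.10, 10.30 and 10.69 in CDP and 10.22 and 9.11 in CMP, so that CMP 1 was level with CDP. On 1434149_at the CDP values were 7.39, 8.53 and 8.35 and the CMP values 7.84 and 6.93, with CDP 1 below CMP 1. On 1424089_a_at the CDP values were 9.01, 9.85 and 9.40 and the CMP values 8.73 and 9.14. Over the 5 the differences ran from 0.48 to 0.89, or 1.40-fold to 1.85-fold, with a median of 0.70 beside 0.12 over all tested probe sets. These probe sets measure the same gene in the same RNA and are not replicates.

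Within the kinds of array the Tcf4 probe sets parted. Between CDP 1 and CMP 1, both low in 5′ signal, 1416723_at and 1434149_at were at -0.12 and -0.45. Between the other arrays they were at 1.38 and 1.52. The remaining probe sets of Tcf4 were above 0 in both kinds, from 0.28 to 0.67 in the first and from 0.48 to 0.94 in the second. With the 5′ block 1416724_x_at came closest to passing, at 0.83 ± 0.27 (SE, limma adjusted p = 0.11). A sixth probe set, 1416725_at, lay between 2.49 and 3.11 and was not detected.

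Tcf3 (E2A) varied more with the kind of array than with the progenitor. On 1426297_at it read 6.21, 8.84 and 9.49 on CDP 1, CDP 2 and CDP 3, and 6.01 and 8.59 on CMP 1 and CMP 2. The low values are those of CDP 1 and CMP 1, the arrays low in 5′ signal. CDP minus CMP was 0.88 ± 1.16 (SE, 95% interval -1.95 to 3.71, adjusted p = 0.788). Within each group the other arrays exceeded the array low in 5′ signal by 2.77 on average, a gap reached by 0.894% of all tested probe sets. CDP 1 exceeded CMP 1 by 0.20, and CDP 2 with CDP 3 exceeded CMP 2 by 0.57. With the block the difference was 0.41 ± 0.31 (SE, limma adjusted p = 0.441).

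A second Tcf3 probe set had the same split by array. On 1427764_a_at Tcf3 read 3.19, 5.70 and 5.28 in CDP and 3.41 and 6.13 in CMP, so it was detected on CDP 2, CDP 3 and CMP 2 and not on the arrays low in 5′ signal. Its difference was -0.046 ± 1.04 (SE, 95% interval -2.57 to 2.48, adjusted p = 0.99), and -0.46 ± 0.29 (SE) with the block. The direction thus differed between the 2 tested Tcf3 probe sets. The third, 1452542_x_at, lay between 2.28 and 2.42. How far the 5′ signal set the Tcf3 values was not tested beyond these figures. In the fit without the block, the width of the intervals leaves changes of several fold in either direction undetectable. With the block the standard errors were smaller, at 0.31 on 1426297_at and 0.29 on 1427764_a_at.

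Tcf12 (HEB) did not separate the progenitors on any of its 3 tested probe sets. On the brightest, 1427670_a_at, Tcf12 read 12.04, 11.52 and 11.72 on CDP 1, CDP 2 and CDP 3, and 11.88 and 11.37 on CMP 1 and CMP 2. The 5 values lay within 0.7 of each other, and CDP minus CMP was 0.14 ± 0.35 (SE, 95% interval -0.71 to 0.99, adjusted p = 0.903). On 1421908_a_at the CDP values were 8.40, 6.87 and 6.64 and the CMP values 7.99 and 6.99. On 1439209_at they were 8.13, 7.59 and 7.42 in CDP and 8.84 and 7.04 in CMP. Both were higher on CDP 1 and CMP 1 than on the other arrays of the same group, by 1.33 and 1.21 on average, opposite to Tcf3. Their differences were -0.19 ± 0.63 and -0.22 ± 0.58 (SE, adjusted p = 0.925 and 0.904), and 0.042 ± 0.29 and -0.04 ± 0.34 with the block. The other pair of Tcf12 probe sets (1439619_at and 1446294_at) lay between 3.68 and 5.21 and was detected on CMP 2 alone, by 1446294_at at 5.21.

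**Figure D2:**
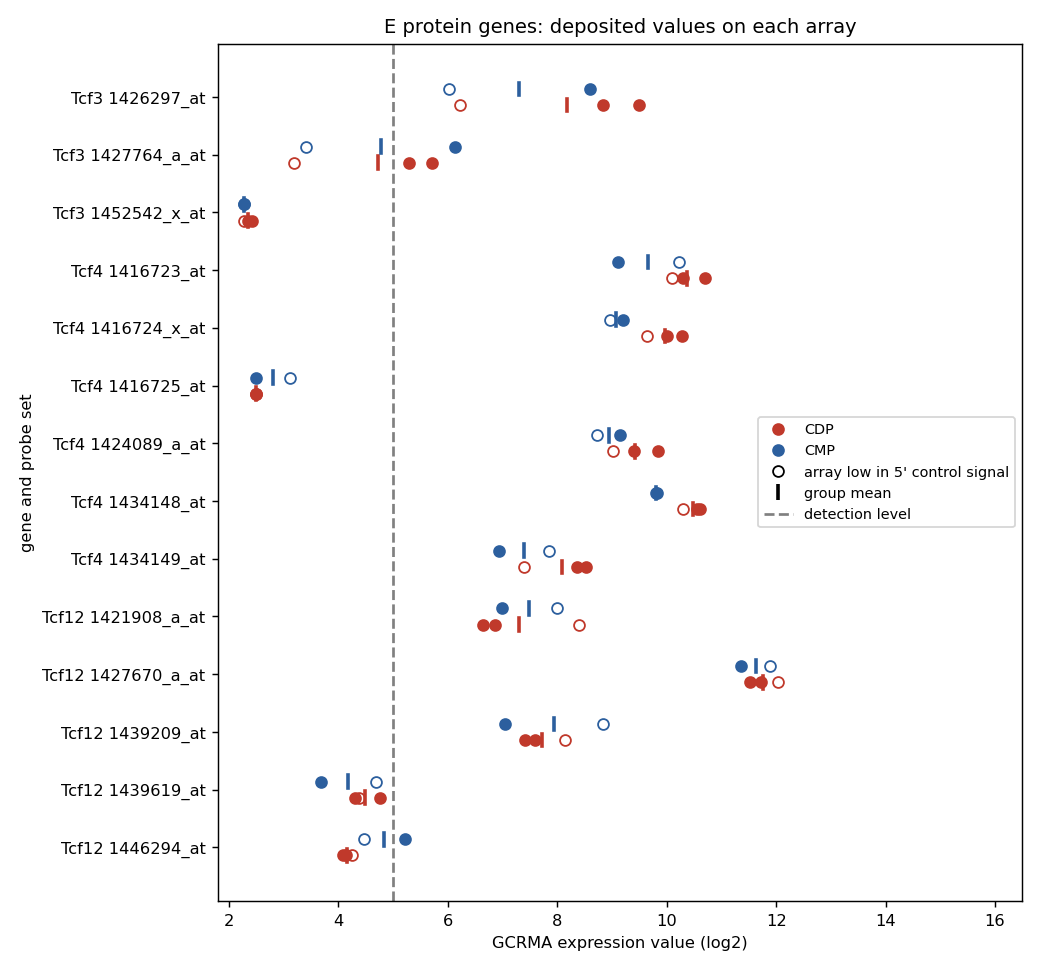
Deposited log2 values (horizontal axis) of the 14 E protein probe sets (vertical axis) on each array, drawn as for the Id genes. The open circles of Tcf3 1426297_at lie at 6.01 and 6.21, apart from the other arrays at 8.59 to 9.49, in both groups alike.

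The intervals of Id2 and of the tested Tcf4 and Tcf12 probe sets did not overlap. The lower end for Id2 was 3.20, while the upper ends for Tcf4 ran from 1.41 to 1.91 and those for Tcf12 from 0.99 to 1.36. The interval of Tcf3 1426297_at, with its upper end at 3.71, overlapped that of Id2. Id3 was not placed in this order, since its CMP values were below detection. When all tested probe sets of a gene were averaged, Tcf4 was at 0.69 ± 0.33 (SE), Tcf3 at 0.42 ± 1.07 and Tcf12 at -0.09 ± 0.47, with adjusted p-values of 0.329, 0.882 and 0.941 in limma.

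**Figure D3:**
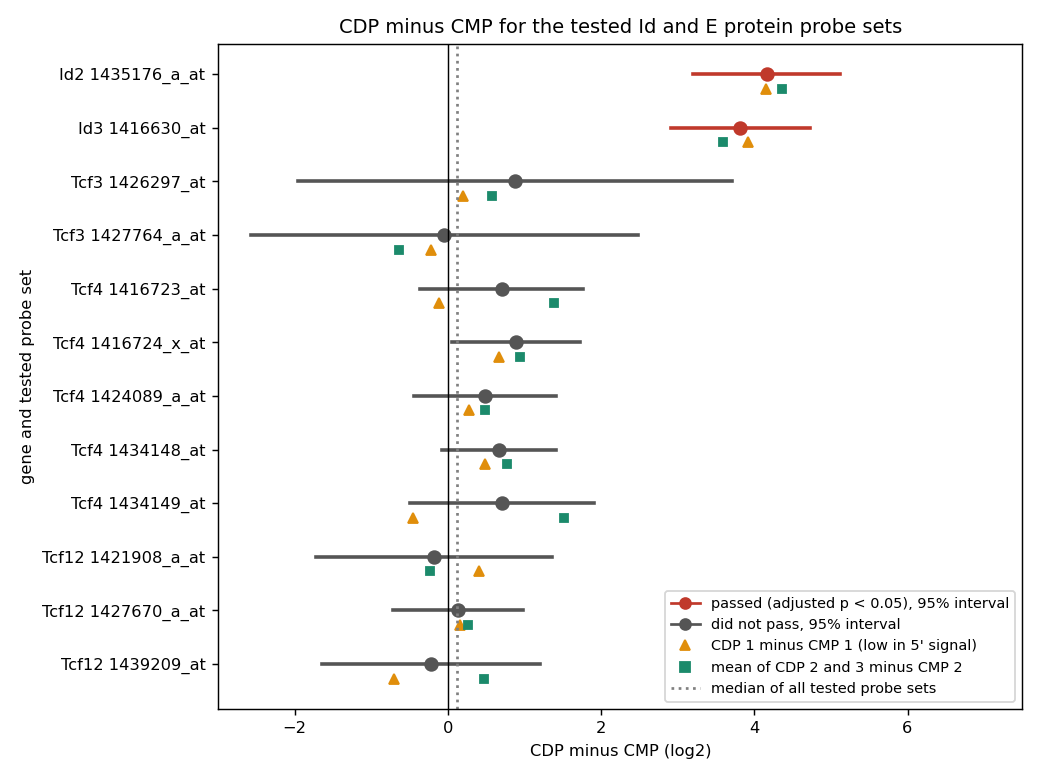
CDP minus CMP (log2, horizontal axis) for the 12 tested probe sets (vertical axis), with circles for the fitted difference, lines for its 95% interval, triangles for CDP 1 minus CMP 1, squares for the mean of CDP 2 and CDP 3 minus CMP 2, and a dotted line at the median of all tested probe sets (0.12). Id2 at 4.16 and Id3 at 3.82 stand to the right, and triangle and square lie close to the circle for both.

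The genes around the Id and E proteins were followed in 9 lists of 143 genes, of which 139 had a probe set and 68 were tested, at 1 probe set per gene (the one with the highest mean). Of the 68, 4 were higher in CDP, none was lower and 64 did not pass, while 25 had an unadjusted p under 0.05. Over all 8449 tested genes 2.14% passed, with 1.67% higher and 0.473% lower. Among all 16552 tested probe sets, not reduced to 1 per gene, 2640 had an unadjusted p under 0.05. The median over the 68 was 0.45, beside 0.17 over all tested genes. Of 33 genes with a further tested probe set, 12 had one of opposite sign, none of them called.

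Most partners of E proteins could not be tested. Of 21 class II bHLH factors with a probe set, such as Myod1, Twist1 and Neurod1, 19 failed the filter and 2 were tested, both factors of blood cells. Lyl1 read 9.59, 10.14 and 10.91 in CDP and 9.23 and 9.72 in CMP (0.74 ± 0.47 SE, adjusted p = 0.513). Tal1, the partner of E2A in stem and erythroid cells, read 4.93, 6.23 and 7.30 in CDP and 7.51 and 6.90 in CMP (-1.05 ± 0.70 SE, adjusted p = 0.540). Neither passed, and the groups overlapped for both.

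Cofactors of E proteins went both ways. None of 13 tested passed, 4 had an unadjusted p under 0.05, and the median was -0.23. Lmo2, which bridges Tal1 and E2A to other factors, read 11.35, 11.36 and 11.69 in CDP and 12.31 and 12.78 in CMP (-1.08 ± 0.33 SE, adjusted p = 0.197). Its relative Lmo1 read 6.08, 6.15 and 6.23 in CDP and 4.77 and 5.37 in CMP (1.08 ± 0.33 SE, adjusted p = 0.200). The arrays of the groups did not overlap for either, in opposite directions, and neither passed.

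BMP and TGF-beta receptors and Smad proteins, through which Id genes are commonly induced, gave no call among 16 tested, with 3 at an unadjusted p under 0.05 and a median of 0.37. Acvr1, a type I BMP receptor, read 8.66, 8.17 and 8.55 in CDP and 5.96 and 6.88 in CMP (2.04 ± 0.40 SE, adjusted p = 0.0768), and it passed with the 5′ block (2.00 ± 0.36 SE, adjusted p = 0.0254). Smad3, which carries TGF-beta signals, read 7.57, 7.32 and 7.39 in CDP and 8.84 and 8.72 in CMP (-1.35 ± 0.30 SE, adjusted p = 0.104). Bmpr1a, Bmpr1b and Smad6 were among 10 genes of this list that failed the filter.

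Genes that act on the stability of Id or E proteins gave no call. None of 9 tested passed, and none had an unadjusted p under 0.05 (median 0.27). Those with the smallest p were Cdc20 (0.85 ± 0.36 SE, adjusted p = 0.322) and Fzr1 (1.19 ± 0.59 SE, adjusted p = 0.403), both activators of the anaphase-promoting complex. Every CDP array lay above both CMP arrays for Cdc20, while the groups overlapped for Fzr1. Of 4 tested E-box repressors and Hes or Bhlhe factors none passed and 3 had an unadjusted p under 0.05. Hes6, a bHLH relative, was at 1.86 ± 0.38 (SE, adjusted p = 0.0826) on a probe set with the suffix _x_at. The other tested probe set of Hes6 was at 0.93 ± 0.99 (SE, adjusted p = 0.721). Zeb1, a zinc finger repressor that binds E-boxes, was at -1.83 ± 0.39 (SE, adjusted p = 0.0959), and its other tested probe set at -0.22 ± 0.41 (SE, adjusted p = 0.857).

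Among genes of cells that depend on E2-2 or Id2 a few rose in CDP and most tested ones did not pass. Of 7 tested plasmacytoid dendritic cell genes 2 rose and 5 did not pass, with a median of 1.30. Pld4, an endolysosomal nuclease, read 7.80, 10.07 and 9.81 in CDP and 3.02 and 4.24 in CMP, at least 18.7-fold higher (limma adjusted p = 0.0357). Pld4 met the filter through its CDP arrays alone, and undetected CMP values enter the spread behind its p. Lair1, an inhibitory receptor, read 7.05, 7.71 and 7.60 in CDP and 5.43 and 4.995 in CMP, at least 4.71-fold higher (limma adjusted p = 0.0477). Lair1 did not pass on its other 2 tested probe sets (adjusted p = 0.0543 and 0.302) or after quantile normalization (0.0574). Siglech, Ccr9, Tlr7, Tlr9, Irf7, Spib, Ly6d, Pacsin1 and Ptcra, among the defining genes of plasmacytoid cells, failed the filter. Klk1 was the 1 tested gene of this list below 0, lower on every CDP array (-0.99 ± 0.32 SE, adjusted p = 0.217), and did not pass. The 7 plasmacytoid markers checked as a cell type summed to 6.64 to 8.66 in CDP and 6.85 to 8.11 in CMP, so the groups overlapped, with 1 or 2 detected on each array. Only Bst2 and Klk1 of these markers were detected on any array. Bst2 read 4.36 and 3.20 on CDP 1 and CMP 1, the arrays low in 5′ signal, and 6.94 to 8.33 on the others.

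Of 3 tested genes from the list of Id2-dependent dendritic cells, Irf8 rose and 2 did not pass. Irf8, which is needed for that lineage, was 6.12-fold higher in CDP (limma adjusted p = 0.0318), and it missed the threshold on a second probe set (adjusted p = 0.0694). Batf3, Xcr1, Itgae, Tlr3 and 4 more genes of that list failed the filter of 2 arrays at log2 5. Of 7 tested early lymphoid genes 1 rose and 6 did not pass, with a median of 1.04. This was Il7r, the interleukin-7 receptor alpha chain, at 6.75, 6.10 and 5.69 in CDP and 2.53 and 3.20 in CMP, at least 2.27-fold higher (limma adjusted p = 0.0318). Il7r too met the filter through its CDP arrays alone, and undetected CMP values enter the spread behind its p. Gfi1, a zinc finger repressor of the same list, differed the other way and did not pass. It read 7.43, 5.59 and 6.52 in CDP and 10.02 and 9.40 in CMP, without overlap (-3.20 ± 0.59 SE, limma adjusted p = 0.0628), and it passed with the 5′ block (-3.02 ± 0.38 SE, adjusted p = 0.00976). Rag1, Rag2, Ebf1 and Pax5 failed the filter.

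None of 7 tested cell cycle inhibitors and Rb family genes passed, while 3 had an unadjusted p under 0.05 (median 0.72). Cdkn2c, which encodes the CDK4 and CDK6 inhibitor p18, read 9.07, 9.17 and 9.55 in CDP and 6.07 and 7.38 in CMP (2.54 ± 0.47 SE, adjusted p = 0.0647). Rb1, whose protein is a known binding partner of Id2, was at 1.58 ± 0.34 (SE, adjusted p = 0.0971). With the 5′ block, 16 of the 68 genes passed, 13 higher and 3 lower. The lower ones were Gfi1, Smad3 and Zeb1, and the higher ones were Pld4, Irf8, Il7r, Cybb, Cdkn2c, Lair1, Hes6, Rb1, Acvr1, Vpreb1, Bhlhe40, Cd79b and Cdkn2d. Of these, Pld4, Il7r, Cybb, Vpreb1 and Cdkn2d met the filter through their CDP arrays alone. Undetected CMP values enter the spread behind their p-values. That block raised the calls among all 16552 tested probe sets, not reduced to 1 per gene, from 287 to 1438. Without CDP 1 a single gene of the 68 passed, and without any other array none did.

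**Figure D4:**
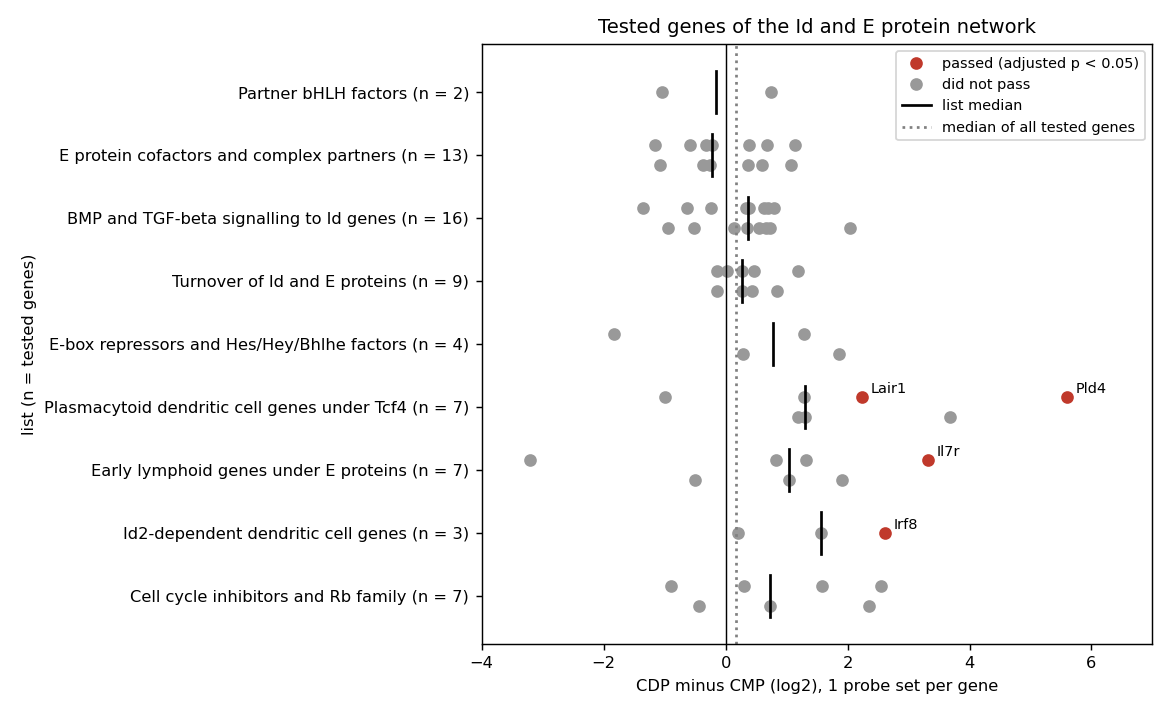
CDP minus CMP (log2, horizontal axis) for the 68 tested genes by list (vertical axis), at 1 probe set per gene, with genes that passed in red, black bars for list medians and a dotted line at the median of all tested genes (0.17). Pld4, Il7r, Irf8 and Lair1 are the 4 that passed, all to the right of 0.

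The genes most like each member across arrays were named by Pearson correlation over the 5 arrays, among 8447 other genes at 1 probe set each. With 5 arrays in 2 groups such values are high for many genes, and they are given as a description. For Id2 the 3 closest were Golm1 (r = 0.99996), Arpc5 (0.99907) and Nde1 (0.99889), and 54 genes reached 0.99 with it. For Id3 they were Apaf1 (0.99991), Srgap3 (0.99933) and Tyrobp (0.99901), with 59 genes at 0.99 or above. Tyrobp, an adaptor of activating receptors, and Srgap3 were also called. Tyrobp was 3.92-fold higher in CDP (limma adjusted p = 0.0477), and Srgap3, below detection in CMP, at least 2.33-fold (adjusted p = 0.0439). Srgap3 met the filter through its CDP arrays alone, and undetected CMP values enter the spread behind its p.

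For Tcf4 the closest were Pirb (0.99942), Dennd1c (0.99859) and Oaz1 (0.99809). Pirb, an inhibitory receptor of myeloid and B cells, and Dennd1c were below detection in CMP and were called higher in CDP, at least 2.79-fold and 2.76-fold (limma adjusted p = 0.0469 and 0.0415). Both met the filter through their CDP arrays alone, and undetected CMP values enter the spread behind these p-values. Tcf4 itself was not called. For Tcf3 the closest were Mrps22 (0.99857), Mgat4b (0.99733) and Slc25a28 (0.99730), none of them called. Mrps22, a mitochondrial ribosomal protein, read 9.42 and 9.28 on CDP 1 and CMP 1 and 10.22 to 10.51 on the other arrays, the split seen for Tcf3. For Tcf12 they were Rpgr (0.99851), Surf4 (0.99750) and 1110059G10Rik (0.99727), all highest on CDP 1 and lowest on CMP 2 and none called.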

How the data were processed

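CDP (n = 3) and CMP (n = 2) were measured on Affymetrix Mouse Genome 430 2.0 chips. The deposited log2 expression values of 45037 probe sets and 64 controls were made by the authors with GCRMA, per the submitters' processing notes. GCRMA models background from each probe's sequence, quantile-normalizes the arrays and combines probes into probe sets. Its version, the genome build and whether arrays were processed together are not given in the sources used here. The number of arrays limits the precision. No column was left unmapped.

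Gene symbols come from the platform annotation. The 7 members matched RefSeq by gene identifier, and 0 symbols changed. Differences were fitted in limma 3.58.1 (R 4.3.3, lmFit and eBayes, 2-sided, 3 residual and 3.14 prior degrees of freedom) on the values as deposited, and the procedure was tested on simulated data. Unless another setting is named, all adjusted p-values are from this fit. Intervals are 95% and unadjusted. A fold is a lower bound, with values below log2 5 set to 5, if the dimmer group had an array below 5.

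The members, the lists and the settings compared were chosen with earlier results of these data known. All members were named, and of each list up to 4 called genes or, with none called, the 2 with the smallest p. Further genes named as not tested, or as passing with the block, illustrate counts. Motifs were chosen after the data were seen and counted in Python 3.11.15. Alternatives were quantile or median scaling, 4 filters, trended or robust variance, array weights, blocks, dropping probe sets that may match several transcripts, gene means and leaving out arrays.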

Additional observations from a re-analysis of the deposited data

How the results depend on the processing

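Id2 and Id3 kept their direction under all settings run (17 for Id2, which the removal of probe sets that may match several transcripts drops, and 18 for Id3), and passed in 10 and 11 of them. Without a filter (45037 probe sets tested) both missed the threshold at adjusted p = 0.124 with differences of 4.16 and 3.82, and without CDP 1 and CMP 1 (low in 5′ signal) at 0.0743 with 4.36 and 3.60. Without single arrays the differences were 3.77 to 4.55 and 3.48 to 4.15, and no member passed (0 to 0), with 2 or 3 at an unadjusted p under 0.05. The members called fell from 2 to 0 without a filter (4 unadjusted) and without the arrays low in 5′ signal (6 unadjusted), and to 1 without probe sets that may match several transcripts. Among all tested probe sets the 287 calls became 55 without a filter, 608 with the replicate block, 1438 with the 5′ block, 0 without the arrays low in 5′ signal (4768 unadjusted) and 0 to 44 without single arrays. The 4 genes of the lists became 0 without a filter (26 unadjusted) and without the arrays low in 5′ signal (34 unadjusted), 8 with the replicate block, 16 with the 5′ block, 7 with gene means and 0 to 1 without single arrays.

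The replicate block used the 4 arrays whose numbers occur in both groups. Deviations from group means correlated at 0.61 for the arrays numbered 1 and 0.58 for those numbered 2, and at 0.33 for CDP 3 with CMP 2. The deviations of the 2 CMP arrays mirror each other, so these values are not separate agreements. The numbers also divide the arrays by 5′ signal, and no label says that they pair samples. With the replicate block Id2 was at 4.22 and Id3 at 3.87 (limma adjusted p = 0.00747 and 0.0093).

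Of the 12 tested member probe sets and 5 list genes followed through the settings (Acvr1, Pld4, Lair1, Il7r and Irf8), directions turned for 5 E protein probe sets, none of which had passed. Tcf3 1426297_at went to -0.41 without CMP 1 (-0.41 to 2.17 over single arrays). Tcf3 1427764_a_at went to 0.52 with array weights, and spanned -1.40 to 1.31 without single arrays. Tcf12 1421908_a_at went to 0.14 with the replicate block and 0.042 with the 5′ block, and spanned -0.73 to 0.32 without single arrays. Tcf12 1427670_a_at spanned -0.12 to 0.39 without single arrays. Tcf12 1439209_at went to 0.47 without the arrays low in 5′ signal, and spanned -1.12 to 0.67 without single arrays. The cause was not tested. The 5 tested Tcf4 probe sets stayed above 0 in every setting run, none passing, but 1416723_at ran from 0.15 without CMP 2 to 1.38 without the arrays low in 5′ signal, and 1434149_at from 0.25 to 1.52 likewise. Signal near background limits Id1, Id4 and Id3 in CMP.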
